A study of Mus musculus with 12 samples.

Results

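The receptors for IL-3, GM-CSF, IL-5 and IL-6 are described here by 7 genes, Il3ra, Csf2ra, Il5ra, Csf2rb, Csf2rb2, Il6ra and Il6st. They were taken by gene symbol, as the rows of the expression table whose probe annotation names one of them. The choice of genes was made with earlier results of these data known. Each of the 7 had exactly 1 row among the 41345 rows of the table, and all 7 passed the filter on low values that left 16860 genes to be tested.

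Each of these receptors has an alpha chain that binds its own cytokine and a second chain that carries the signal. Il3ra, Csf2ra and Il5ra encode the alpha chains for IL-3, GM-CSF and IL-5, and all of them pair with the common beta chain encoded by Csf2rb. The mouse has a further beta chain, encoded by Csf2rb2, that serves the IL-3 receptor alone. Il6ra binds IL-6 and joins gp130, the product of Il6st, which also serves LIF, oncostatin M, IL-11 and IL-27. The beta chains signal mainly through JAK2 and STAT5 and gp130 through JAK1 and STAT3. In the bone marrow IL-3 and GM-CSF sustain myeloid progenitors and IL-5 drives the eosinophil lineage.

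The cells were mouse bone marrow progenitors enriched for Kit and transduced with a retrovirus, MigR1-AE-IRES-GFP, that carries the leukaemia fusion AML1-ETO and a GFP reporter. The donors were Tet2fl/fl;CreER mice, in which Cre recombinase is switched on by 4-hydroxytamoxifen (4-OHT) and removes Tet2, whose product oxidises 5-methylcytosine. The transduced cells were replated 3 times in methylcellulose, and those of every group grew in suspension with SCF, 10 ng/ml IL-3 and 10 ng/ml IL-6, so ligands of these receptors were present throughout. The study compared the deleted cells with the undeleted ones soon after the deletion and later in culture.

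The groups were Tet2-/- cells at passage 2, Tet2fl/fl cells at passage 2, Tet2-/- cells at passage 10 and Tet2fl/fl cells at passage 10. Each held 3 arrays, numbered 1 to 3 as replicates. Every group carried the AML1-ETO virus, the floxed alleles and CreER. Tet2-/- cells had received 200 nM 4-OHT and Tet2fl/fl cells ethanol for 2 passages (4 days), and all were then passaged every 2 days. An effect of 4-OHT or of active Cre therefore cannot be told apart from the loss of Tet2. The mice's age and strain, and whether replicates were separate mice or cultures, are not given in the labels used here, so the p-values measure the spread between these samples, which may be technical.

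RNA was taken from cells sorted as GFP+, CD11b- and Gr1- and positive for the Fc gamma receptors encoded by Fcgr3 and Fcgr2b, and 100 ng of each sample was put on a GeneChip Mouse Gene ST 2.0 array. All values are the authors' RMA values on the log2 scale, and a difference of 1 is a doubling of signal. Array medians lay between 5.57 and 5.68, and arrays of 1 group correlated at 0.984 to 0.991 over genes. Of the genes behind the gate, Fcgr3 averaged 10.90 and Fcgr2b 11.52. Itgam, which encodes CD11b, averaged 8.12. Gr1 antibodies bind the products of Ly6g, which averaged 6.03, and also of Ly6c2, which averaged 11.98. The gate was set on surface protein, which arrays do not measure. The progenitor genes Kit, on which the starting cells were enriched, and Cd34 averaged 10.32 and 12.07. The means of the B cell and the T and NK cell lists lay between 4.58 and 5.19 on all arrays, near the filter of 4.70. Tet2 itself averaged 9.94 ± 0.05 in Tet2-/- and 9.97 ± 0.10 in Tet2fl/fl cells at passage 2, and 9.83 ± 0.16 in Tet2-/- and 9.88 ± 0.07 in Tet2fl/fl cells at passage 10 (SD, n = 3 each). The single value per array covers the whole gene, and its probes need not lie in the deleted part, so it does not check the deletion.

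Differences below come from 1 limma model over the 12 arrays, as the log2 difference ± its standard error, with Benjamini-Hochberg adjustment across the 16860 genes and a threshold of 0.05. No member passed in any of the 6 comparisons in this model. Arrays with the same replicate number deviated together, and with that number as a block 4 differences passed: Csf2ra and Il5ra were lower in Tet2-/- cells on the average of both passages, and in Tet2-/- cells Il3ra was higher and Il6ra lower at passage 10 than at passage 2. The blocked p is given beside each of these. The beta chains Csf2rb and Csf2rb2 and the gp130 gene Il6st passed in neither model.

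**Figure D1:**
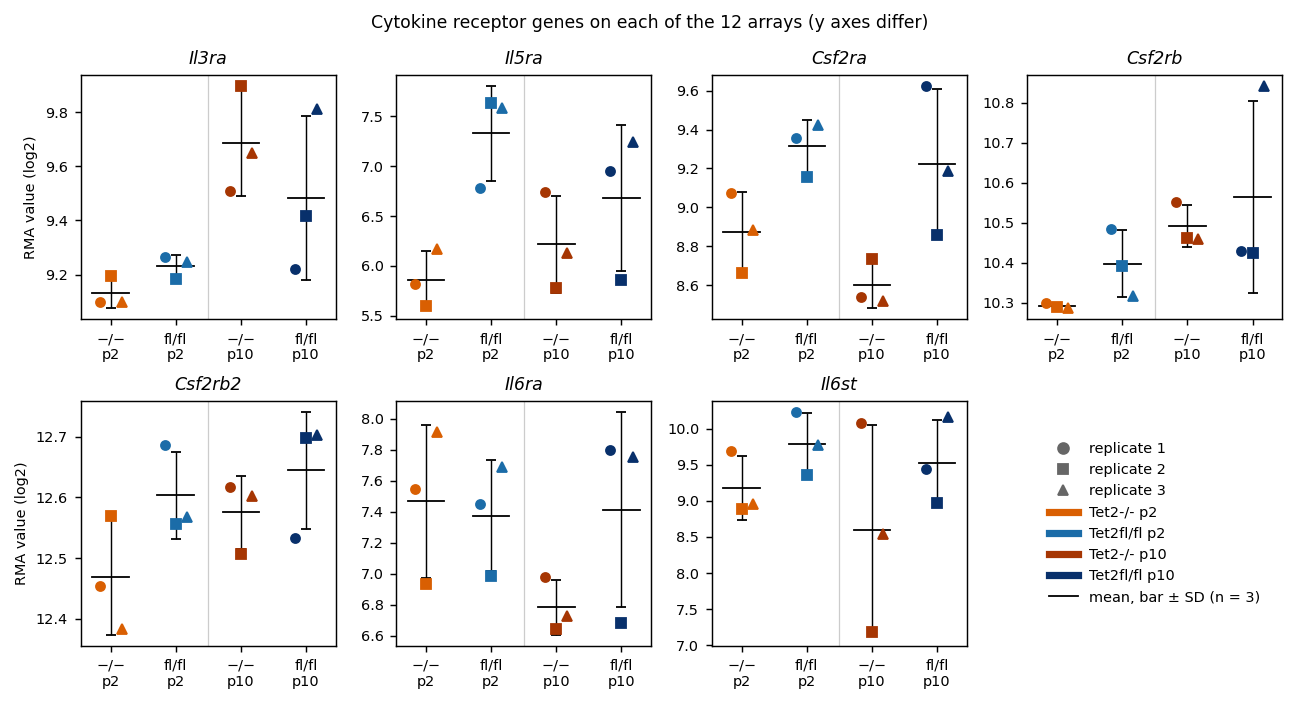
RMA values (log2, y axes differ) of the 7 receptor genes on each of the 12 arrays, by genotype and passage; symbols give the replicate number, the horizontal line the group mean and the bar 1 SD (n = 3). Csf2ra lies lower on every Tet2-/- array than on the Tet2fl/fl arrays of the same passage, Il5ra is lowest at passage 2 in Tet2-/- cells with a mean of 5.86, and 1 Il6st value in Tet2-/- cells at passage 10 stands far below the others at 7.18.

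Csf2ra, the alpha chain of the GM-CSF receptor, was lower in Tet2-/- than in Tet2fl/fl cells at both passages. At passage 2 it read 9.07, 8.66 and 8.88 in Tet2-/- cells, against 9.36, 9.16 and 9.42 in Tet2fl/fl cells. At passage 10 it read 8.54, 8.73 and 8.52 in Tet2-/- cells, against 9.63, 8.86 and 9.19 in Tet2fl/fl cells. The genotypes did not overlap at either passage, and the widest spread was that of Tet2fl/fl cells at passage 10, where replicate 2 lay nearest to the deleted cells. At passage 2 the difference was -0.44 ± 0.17 (limma, adjusted p = 0.432), and the later one was -0.63 ± 0.17 (adjusted p = 0.204). Averaged over the passages it was -0.53 ± 0.12, a level 1.45 times lower in Tet2-/- cells, with a 95% interval of -0.80 to -0.26. Its adjusted p was 0.0543, and 0.0214 with the replicate block.

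All 6 same-numbered pairs of arrays had the lower Csf2ra value in Tet2-/- cells, with differences of -0.29, -0.50 and -0.54 at passage 2 and of -1.09, -0.12 and -0.67 at passage 10. With the block, leaving out 1 array at a time kept the average between -0.63 and -0.45 and the call in 7 of 12 cases. The call was lost without Tet2-/- replicate 1 or 2 at passage 2 (adjusted p = 0.0521 and 0.0613), without Tet2-/- replicate 3 at passage 10 (0.0679) and without Tet2fl/fl replicate 2 or 3 at passage 2 (0.0643 and 0.0604). Without the block it passed when Tet2fl/fl replicate 1 or 2 at passage 10 was left out (adjusted p = 0.0447 and 0.0235). The passage differences of Csf2ra did not pass: passage 10 minus passage 2 was -0.27 ± 0.17 in Tet2-/- cells (adjusted p = 0.385) and -0.09 ± 0.17 in Tet2fl/fl cells (adjusted p = 0.878). The order of the group means, from the lowest up, was Tet2-/- at passage 10 (8.60 ± 0.12), Tet2-/- at passage 2 (8.87 ± 0.21), Tet2fl/fl at passage 10 (9.22 ± 0.39) and Tet2fl/fl at passage 2 (9.31 ± 0.14, SD, n = 3 each), and neighbours of the same genotype lay within their spread.

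Il5ra, the alpha chain of the IL-5 receptor and a marker of the eosinophil lineage, had the largest genotype difference of the 7 genes at passage 2. It read 5.82, 5.60 and 6.17 in Tet2-/- cells, against 6.78, 7.63 and 7.58 in Tet2fl/fl cells. At passage 10 it read 6.74, 5.78 and 6.13 in Tet2-/- cells, against 6.96, 5.85 and 7.24 in Tet2fl/fl cells. The genotypes were apart at passage 2 and overlapped at passage 10, where replicate 2 was low in both. At passage 2 the difference was -1.47 ± 0.36, a level 2.76 times lower (limma, adjusted p = 0.197). The difference at passage 10 was -0.46 ± 0.36 (adjusted p = 0.737). The difference between these genotype differences was 1.00 ± 0.51 (95% interval -0.12 to 2.13, adjusted p = 0.999), so they were not shown to differ.

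On the average of both passages Il5ra differed by -0.97 ± 0.26, a level 1.95 times lower in Tet2-/- cells (95% interval -1.53 to -0.40). Its adjusted p was 0.0822, and 0.0412 with the replicate block. Il5ra was lower in Tet2-/- cells in all 6 same-numbered pairs, with differences of -0.96, -2.03 and -1.41 at passage 2 and of -0.21, -0.07 and -1.11 at passage 10. With the block and 1 array left out the average ran from -1.17 to -0.76, and it passed in 3 of 12 cases, without Tet2-/- replicate 1 at passage 10 (adjusted p = 0.0244), Tet2fl/fl replicate 1 at passage 2 (0.0199) or Tet2fl/fl replicate 2 at passage 10 (0.0299). It was not past the threshold in the other 9, with adjusted p up to 0.116. Without the block it passed when Tet2fl/fl replicate 2 at passage 10 was left out (-1.17, adjusted p = 0.0285). In these bulk samples fewer cells that express a gene and less of its RNA per cell cannot be told apart.

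The mean of the eosinophil markers was lower beside Il5ra on all 3 Tet2-/- arrays at passage 2. There 0 of 6 passed without the block, against 0.00593% of all genes, and 0 with it, against 0.409%. The unadjusted p (limma without the block) lay below 0.05 for 4 of 6, against 9.95% of genes. The median difference of the 6 was -1.25, against -0.00 over all genes. Of the 8 markers on the list 6 had a row and were tested (Epx, Prg2, Prg3, Ear6, Siglecf and Ccr3), and their mean level lay at 7.71 to 7.99 in Tet2-/- and 9.04 to 9.29 in Tet2fl/fl cells at passage 2. At passage 10 it lay at 7.24 to 8.85 in Tet2-/- and 7.22 to 9.38 in Tet2fl/fl cells, with replicate 2 lowest in both genotypes. At passage 2 the difference was negative for 5 of the 6, and it was 0.07 ± 0.31 for Siglecf, an eosinophil surface lectin (adjusted p = 0.961). Epx, the eosinophil peroxidase, read 7.66, 7.82 and 8.33 in Tet2-/- cells at passage 2, against 10.67, 11.04 and 10.98 in Tet2fl/fl cells. Its average genotype difference was -2.22 ± 0.50 (adjusted p = 0.0501, and 0.0169 with the block). None of the 6 markers passed on that average without the block, against 1.72% of all genes. With it Epx alone passed, 1 of 6 against 5.41%. RMA values have no zero, so no marker can be called absent. The RNA came from cells sorted as CD11b- and Gr1-, and mature eosinophils carry CD11b. The part of eosinophil-lineage cells in the Il5ra difference was not tested.

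The mean of the markers of mast cells and basophils was also lower in Tet2-/- cells, beside both Csf2ra and Il5ra. All 12 had a row, and this mean lay at 10.50 to 10.80 in Tet2-/- and 11.08 to 11.22 in Tet2fl/fl cells at passage 2, and at 10.10 to 10.68 in Tet2-/- and 11.05 to 11.42 in Tet2fl/fl cells at passage 10. On the average of both passages 2 of the 12 fell in Tet2-/- cells and 0 rose, against 1.72% of all genes in either direction. They were the serotonin transporter Slc6a4 (-2.73 ± 0.24, adjusted p = 0.000824) and the tryptase Tpsab1 (-1.43 ± 0.22, adjusted p = 0.0124), both without the block. With the block 5 of the 12 fell and 0 rose, against 5.41% of all genes in either direction. The unadjusted p (limma without the block) was below 0.05 for 7 of 12, against 16.1%. The difference was negative for 8 of the 12, and the protease Cpa3 differed by 0.00 ± 0.04 (adjusted p = 0.999). Kit, the SCF receptor, on which the progenitors had been enriched, fell as well (-0.82 ± 0.15, adjusted p = 0.022). Its call was lost without Tet2fl/fl replicate 3 at passage 2, Tet2-/- replicate 1 or 2 at passage 2 or Tet2-/- replicate 2 at passage 10, with adjusted p up to 0.0553. Their part in the receptor differences was not tested. Of the monocyte and macrophage list 8 of 9 had a row. Its mean lay at 7.89 to 8.15 in Tet2-/- and 7.68 to 7.92 in Tet2fl/fl cells at passage 2. At passage 10 it lay at 8.09 to 8.24 in Tet2-/- and 7.96 to 8.35 in Tet2fl/fl cells. On the average of both passages 0 of 8 passed without the block, against 1.72% of all genes. With the block 1 rose and 0 fell, against 5.41% in either direction. Of the erythroid and megakaryocyte list 4 of 8 had a row. Its mean lay at 7.44 to 7.78 in Tet2-/- and 7.52 to 7.71 in Tet2fl/fl cells at passage 2. At passage 10 it lay at 7.74 to 8.16 in Tet2-/- and 7.52 to 7.99 in Tet2fl/fl cells. Here too 0 of 4 passed on the average without the block, and with it 1 rose and 0 fell, against the same shares.

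**Figure D2:**
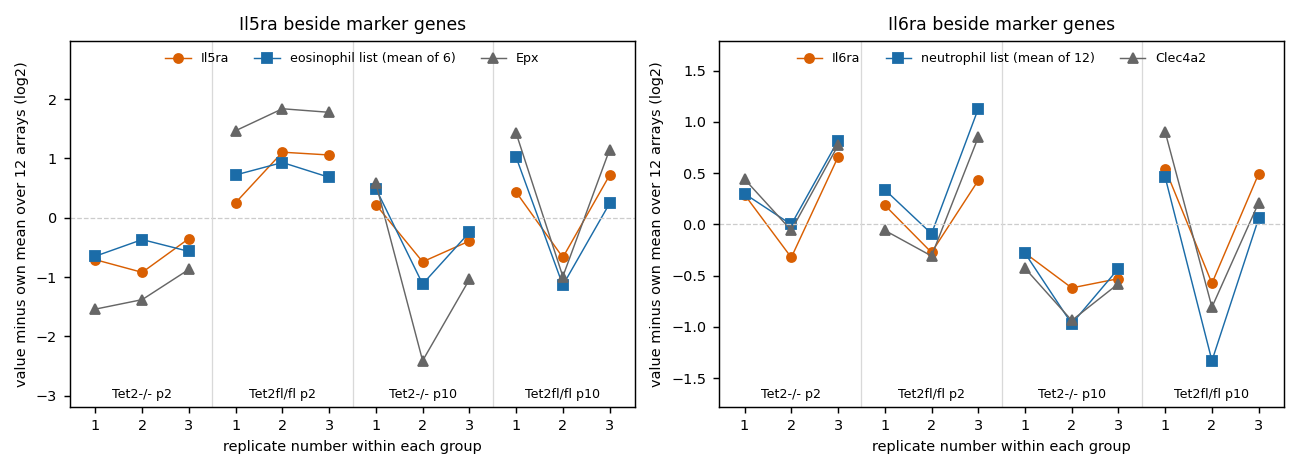
Left, Il5ra, the mean of 6 eosinophil markers and Epx; right, Il6ra, the mean of 12 neutrophil markers and Clec4a2; each is plotted on the 12 arrays as its value minus its own mean over the arrays (log2), by replicate number within each group. Il5ra, Epx and the eosinophil mean are below 0 on all 3 Tet2-/- arrays at passage 2, and Il6ra is lowest at replicate 2 in 4 of 4 groups, as the neutrophil mean is. Epx and Clec4a2 are each among the 3 genes most correlated with the receptor beside them on these arrays, and Epx is also 1 of the 6 eosinophil markers.

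The promoters of Csf2ra and Il5ra are shown because TET2 acts on cytosine in CG pairs. These were the members whose average genotype difference passed with the replicate block, and neither passed without it. They are the reference sequences of RefSeq (assembly GRCm38.p6), from 250 bases before to 50 bases after the start that the promoter table uses, on the gene's strand and 5′ to 3′. The table does not name the transcript, and its start lay at the outer end of the RefSeq gene record for 4 of the 6 members with a promoter, Il5ra among them, but 43 bases inside it for Csf2ra and 583 bases inside it for Il3ra. Capitals mark the matches to a GATA motif (AGATAA) and to a PU.1 motif (GAGGAA). The Csf2ra window is chr19:61228369-61228668 on the minus strand and the Il5ra window chr6:106748988-106749287 on the minus strand.
Csf2ra: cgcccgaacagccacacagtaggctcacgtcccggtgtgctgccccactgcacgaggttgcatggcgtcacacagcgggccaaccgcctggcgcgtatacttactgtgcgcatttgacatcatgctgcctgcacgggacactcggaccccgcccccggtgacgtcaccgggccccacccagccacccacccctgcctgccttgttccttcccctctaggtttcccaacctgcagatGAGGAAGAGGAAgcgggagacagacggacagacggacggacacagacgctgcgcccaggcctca
Il5ra: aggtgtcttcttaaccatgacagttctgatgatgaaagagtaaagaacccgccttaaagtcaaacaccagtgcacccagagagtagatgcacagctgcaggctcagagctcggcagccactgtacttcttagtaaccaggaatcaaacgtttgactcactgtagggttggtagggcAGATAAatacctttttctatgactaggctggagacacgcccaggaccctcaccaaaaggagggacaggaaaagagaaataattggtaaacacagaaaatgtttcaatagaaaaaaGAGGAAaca

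Both promoters differ in their CG pairs, with 23 in the Csf2ra window and 4 in the Il5ra window. Of all 32851 promoters, 80% had as many CG pairs as Csf2ra or fewer, and 38% had as many as Il5ra or fewer. Among the other members with a promoter, Il3ra had 35 pairs, Il6st 33, Il6ra 25 and Csf2rb2 3. The table held a promoter for 6 of the 7 members, all but Csf2rb. Methylation was not measured on these arrays.

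Exact matches were searched on both strands. Csf2ra held 2 PU.1 matches, beginning 14 and 8 bases before the table's start, which is within the gene record, and Il5ra held 1 GATA match, beginning 74 bases before its start, and 1 PU.1 match after it. Of the other windows, Il6ra held 1 GATA and 1 PU.1 match and Csf2rb2 held 2 PU.1 matches, while Il3ra and Il6st held neither motif. PU.1 matches were in 28.3% of all promoters and GATA matches in 11.2%. The RUNX motif TGTGGT, the site bound by the AML1 part of the fusion, was in none of the 6 windows, against 16.8% of all promoters. The STAT motif TTCNNNGAA was in the Csf2rb2 window alone of the 6, against 8.3% of all, and the C/EBP motif TTNNNCAA was in 5 of the 6, all but Il6st, against 36.7%. In the Il6ra and Csf2rb2 windows a C/EBP match overlapped a PU.1 match. A match here describes letters and not binding.

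Il3ra, the alpha chain of the IL-3 receptor, was higher at passage 10 than at passage 2 in Tet2-/- cells. It read 9.51, 9.90 and 9.65 at passage 10, against 9.10, 9.20 and 9.10 at passage 2, and the passages did not overlap. In Tet2fl/fl cells it read 9.22, 9.42 and 9.81 at passage 10, against 9.26, 9.19 and 9.25 at passage 2, where the passages overlapped and replicate 3 at passage 10 stood highest. The difference in Tet2-/- cells was 0.56 ± 0.14, a level 1.47 times higher (95% interval 0.25 to 0.86). Its adjusted p was 0.0558, and 0.0334 with the replicate block. In Tet2fl/fl cells it was 0.25 ± 0.14 (adjusted p = 0.554), and the difference between both, 0.30 ± 0.20, did not pass (adjusted p = 0.999).

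With the block and 1 array left out the passage difference of Il3ra in Tet2-/- cells ran from 0.44 to 0.63. It passed in 6 of 12 cases, all those that left out a Tet2fl/fl array. The call was lost when any Tet2-/- array was left out, with adjusted p of 0.0861, 0.073 and 0.131 without replicate 1, 2 or 3 at passage 2, and 0.0774, 0.128 and 0.0788 without replicate 1, 2 or 3 at passage 10. Without the block it passed when Tet2fl/fl replicate 1 or 3 at passage 10 was left out (adjusted p = 0.0431 and 0.031). The genotype differences did not pass: Il3ra differed by -0.10 ± 0.14 at passage 2, with an adjusted p of 0.856, and by 0.20 ± 0.14 at passage 10, with 0.688. Its group means were 9.69 ± 0.20 in Tet2-/- and 9.48 ± 0.30 in Tet2fl/fl cells at passage 10, and 9.13 ± 0.06 in Tet2-/- and 9.23 ± 0.04 in Tet2fl/fl cells at passage 2 (SD, n = 3 each), and the genotypes at passage 10 lay within their spread.

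The beta chains varied least of the members, with an SD over the 12 arrays of 0.15 for Csf2rb and 0.10 for Csf2rb2. Csf2rb, the shared chain of the IL-3, GM-CSF and IL-5 receptors, read 10.30, 10.29 and 10.29 in Tet2-/- cells at passage 2, against 10.48, 10.39 and 10.32 in Tet2fl/fl cells. It read 10.55, 10.46 and 10.46 in Tet2-/- cells at passage 10, against 10.43, 10.42 and 10.84 in Tet2fl/fl cells. At passage 2 the genotypes did not overlap, though the highest Tet2-/- value was 10.30 and the lowest Tet2fl/fl value 10.32, and at passage 10 they overlapped, with replicate 3 of Tet2fl/fl cells above the rest. The genotype difference was -0.11 ± 0.11 at passage 2, with an adjusted p of 0.794, and -0.07 ± 0.11 at passage 10, with 0.889. In Tet2-/- cells passage 10 lay above passage 2 on every array, by 0.20 ± 0.11 (95% interval -0.04 to 0.43, adjusted p = 0.309), and in Tet2fl/fl cells the difference was 0.17 ± 0.11 (adjusted p = 0.597).

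Csf2rb2, the beta chain that in the mouse serves IL-3 alone, read 12.45, 12.57 and 12.38 in Tet2-/- cells at passage 2, against 12.69, 12.56 and 12.57 in Tet2fl/fl cells. At passage 10 it read 12.62, 12.51 and 12.60 in Tet2-/- cells, against 12.53, 12.70 and 12.70 in Tet2fl/fl cells. The genotypes overlapped at both passages. The genotype difference was -0.13 ± 0.08 at passage 2 (95% interval -0.31 to 0.05, adjusted p = 0.631) and -0.07 ± 0.08 at passage 10 (-0.25 to 0.11, adjusted p = 0.85). Passage 10 minus passage 2 was 0.11 ± 0.08 in Tet2-/- cells (adjusted p = 0.483) and 0.04 ± 0.08 in Tet2fl/fl cells (adjusted p = 0.883). The Csf2rb and Csf2rb2 transcripts are near-identical over much of their length, so array probes may bind both and the separation of the genes is uncertain.

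**Figure D3:**
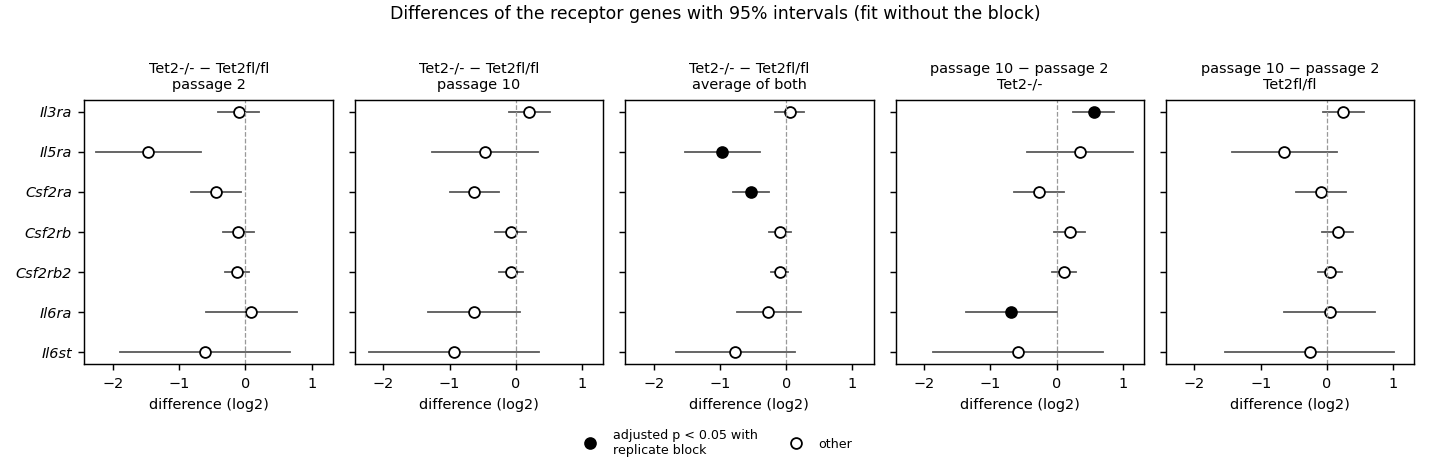
Log2 differences of the 7 receptor genes with 95% intervals from the model without the block, for Tet2-/- minus Tet2fl/fl at passage 2, at passage 10 and on their average, and for passage 10 minus passage 2 in each genotype; filled points passed with the replicate block. The filled points are Il5ra (-0.97) and Csf2ra (-0.53) on the average, and Il3ra (0.56) and Il6ra (-0.69) with passage in Tet2-/- cells, and the narrowest intervals are those of Csf2rb2.

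Il6ra, the chain that binds IL-6, was lower at passage 10 than at passage 2 in Tet2-/- cells. It read 6.98, 6.64 and 6.73 at passage 10, against 7.55, 6.94 and 7.92 at passage 2, and the passages overlapped only between replicate 1 at passage 10 and replicate 2 at passage 2. In Tet2fl/fl cells it read 7.80, 6.68 and 7.75 at passage 10, against 7.45, 6.99 and 7.69 at passage 2, with the passages overlapping. The difference in Tet2-/- cells was -0.69 ± 0.31, a level 1.61 times lower (adjusted p = 0.233). With the replicate block its standard error was 0.17 and its adjusted p 0.0424. Each same-numbered pair was lower at passage 10, with differences of -0.57, -0.30 and -1.19. In Tet2fl/fl cells the difference was 0.04 ± 0.31 (adjusted p = 0.976), and the difference between both, -0.72 ± 0.44, had an adjusted p of 0.999, and 0.942 with the block.

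With the block and 1 array left out, the passage difference of Il6ra in Tet2-/- cells ran from -0.89 to -0.47 and passed in 4 of 12 cases. These were the cases without Tet2-/- replicate 2 at passage 10 (adjusted p = 0.0451) and without Tet2fl/fl replicate 1, 2 or 3 at passage 10 (0.0376, 0.0314 and 0.0492), and in the other 8 the adjusted p reached 0.16. Between the genotypes Il6ra differed by 0.09 ± 0.31 at passage 2, with an adjusted p of 0.951, and by -0.63 ± 0.31 at passage 10 (95% interval -1.32 to 0.06, adjusted p = 0.519). The lowest group mean was 6.78 ± 0.18 in Tet2-/- cells at passage 10, and the other groups, at 7.47 ± 0.50 in Tet2-/- and 7.37 ± 0.36 in Tet2fl/fl cells at passage 2 and 7.41 ± 0.63 in Tet2fl/fl cells at passage 10, lay within their spread of each other (SD, n = 3 each).

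Il6ra lay lowest at replicate 2 in 4 of 4 groups, as did Il6st, and this held for 600 of the 16860 genes (3.56%). Replicate 2 was singled out after the values were seen. The mean of the 12 neutrophil markers, all with a row, had the same low replicate in 4 of 4 groups. It read 9.30, 9.0 and 9.82 in Tet2-/- cells at passage 2 and 9.34, 8.91 and 10.13 in Tet2fl/fl cells, and at passage 10 it read 8.72, 8.03 and 8.57 in Tet2-/- cells and 9.46, 7.67 and 9.06 in Tet2fl/fl cells. With passage in Tet2-/- cells 10 of these 12 markers were lower, with a median of -0.69, against 0.04 for every gene tested. In Tet2fl/fl cells, where Il6ra differed by 0.04, 11 of the 12 were lower with passage, with a median of -0.68, against 0.03. In Tet2-/- cells 0 of 12 passed without the block, and with it 5 fell, against 7.94% of all genes in either direction, among them the neutrophil elastase Elane (-1.69) and the calprotectin subunit S100a8 (-2.72). Maturing neutrophils carry CD11b and Gr1, on which the sort excluded cells. Their part in the Il6ra difference was not tested.

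Il6st, which encodes gp130, had the widest spread of the members, with an SD of 0.86 over the 12 arrays. It read 9.69, 8.89 and 8.95 in Tet2-/- cells at passage 2, against 10.23, 9.36 and 9.77 in Tet2fl/fl cells. At passage 10 it read 10.08, 7.18 and 8.54 in Tet2-/- cells, against 9.44, 8.98 and 10.16 in Tet2fl/fl cells. The genotypes overlapped at both passages, and replicate 2 of Tet2-/- cells at passage 10 was the lowest value of all. The difference was -0.61 ± 0.58 at passage 2, with an adjusted p of 0.777, and -0.93 ± 0.58 at passage 10 (95% interval -2.21 to 0.35, adjusted p = 0.648). Same-numbered pairs were lower in Tet2-/- cells 3 of 3 times at passage 2, with differences of -0.54, -0.47 and -0.82, and at passage 10 they differed by 0.64, -1.80 and -1.62. Passage 10 minus passage 2 was -0.58 ± 0.58 in Tet2-/- cells (adjusted p = 0.602), and without that lowest array it was 0.13. In Tet2fl/fl cells it was -0.26 ± 0.58 (adjusted p = 0.898).

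The members' counts were read against those of all genes. At passage 2, 0 of 7 members passed without the block, against 0.00593% of all genes, and 0 with it, against 0.409%. The genotypes did not overlap for 3 of 7 (Csf2ra, Csf2rb and Il5ra, all lower in Tet2-/- cells), against 15.3% of genes, and the unadjusted p lay below 0.05 for 2 of 7, against 9.95%. At passage 10, 0 of 7 passed without the block and 0 with it, against 0.225% and 1.31%. Only Csf2ra had genotypes apart there, 1 of 7 against 16.4%, and 1 of 7 had an unadjusted p below 0.05, against 10.6%.

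For the average of both passages 0 of 7 passed without the block, against 1.72%, and 2 of 7 with it, against 5.41%. The unadjusted p was below 0.05 for the same 2, against 16.1% of genes. None of the 7 had all 6 Tet2-/- arrays apart from all 6 Tet2fl/fl arrays, against 1.79%. The sign was negative for 6 of 7 members, against 51.4% of all genes, and the members' median was -0.27, against -0.00 over all genes. With passage in Tet2-/- cells 0 of 7 passed without the block, against 2.98%, and 2 of 7 with it, against 7.94%. There the passages were apart for 2 of 7 (Il3ra and Csf2rb, both higher at passage 10), against 28.3%, and 1 of 7 had an unadjusted p below 0.05, against 21.6%.

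With passage in Tet2fl/fl cells 0 of 7 members passed without the block and 0 with it, against 0% and 0.0415% of all genes. None had passages that did not overlap, against 14.5%, and none had an unadjusted p below 0.05, against 10.2%. For the difference between the genotype effects 0 of 7 passed in either model, against 0% without the block and 0.00593% with it, and 0 of 7 had an unadjusted p below 0.05, against 3.22%. The comparisons share groups of arrays, so their counts are not independent of each other. Among the adjusted tests without the block, a share of 0 of 7 lies near the background in every comparison.

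The members differed in the share of their variation that each factor took. Genotype took 59.8% of the sum of squares over the 12 arrays for Csf2ra and 48.4% for Il5ra. Passage took 58.3% for Il3ra and 38.8% for Csf2rb. The replicate number took 48.1% for Il6ra and 40% for Il6st, against 0.681% for Csf2rb2 and 5.61% for Csf2rb. The largest share lay with none of these for Csf2rb2 (50.9%) and Csf2rb (46.1%). The replicate number has more levels than genotype or passage, and the rest has the most degrees of freedom. Both therefore take larger shares from noise alone, and shares of unlike factors are not like for like.

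**Figure D4:**
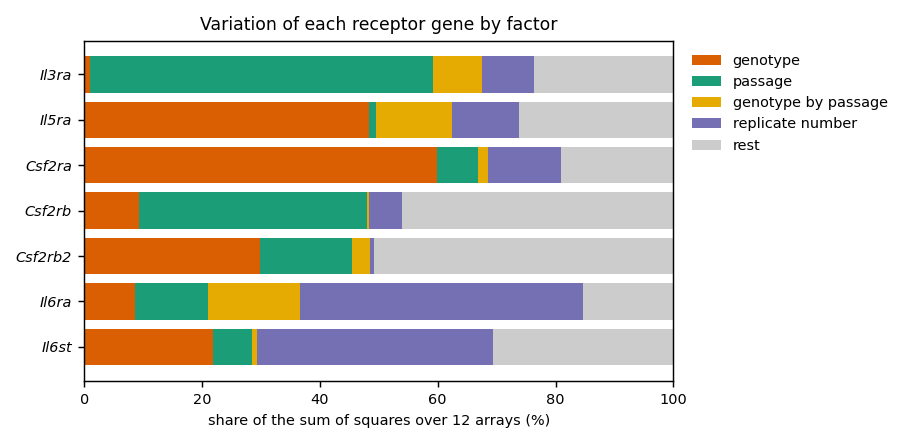
Share of each receptor gene's sum of squares over the 12 arrays (%) taken by genotype, passage, their interaction, the replicate number and the rest, as a description with no test. Genotype takes most for Csf2ra (59.8%) and Il5ra (48.4%), passage for Il3ra (58.3%), and the replicate number for Il6ra (48.1%) and Il6st (40%).

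The genes whose pattern over the 12 arrays was most like a member's were named by Pearson's r, 3 for each, and these values describe arrays that share groups and replicate numbers. For Il5ra they were the tubulin folding cofactor Tbcc (0.949), Epx (0.941) and Naaladl1 (0.936). For Il6ra they were Zfp438 (0.952), the myeloid lectin Clec4a2 (0.933) and Tnfrsf1a (0.933), a TNF receptor. For Csf2ra they were Polr2a (0.950), the largest subunit of RNA polymerase II, Rab15 (0.938) and the DNA polymerase Rev1 (0.904). For Il3ra they were Dtnb (0.933), the lysosomal cholesterol carrier Npc2 (0.930) and Vwa3b (0.916). For Csf2rb they were the lysosomal enzyme Idua (0.951), Epb41l5 (0.942) and Fthl17f (0.929), for Csf2rb2 the kinase Mknk1 (0.932), Akap2 (0.924) and the autophagy protein Gabarap (0.902), and for Il6st the recombination protein Rad51b (0.929), the cadherin Cdh2 (0.921) and Arl14ep (0.912).

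Among the ligands of these receptors and of gp130, 9 of 11 were tested and none passed in any comparison without the block. Of all genes 0% to 2.98% passed, depending on the comparison, so none of 9 lies near the background. Il3 had a row below the filter, with a mean of 4.10, and Cntf had none. The nearest was Lif, a gp130 cytokine, with an average genotype difference of 0.62 ± 0.25 (adjusted p = 0.245, and 0.0169 with the block). Il5 differed by -0.27 ± 0.13 with passage in Tet2fl/fl cells (adjusted p = 0.513). Il6 differed by 0.32 ± 0.21 between the genotypes (adjusted p = 0.51). Of the receptors that pair with gp130, 3 of 5 were tested and none passed without the block, against the same 0% to 2.98% of all genes. Il27ra, the IL-27 receptor, was nearest, at -0.46 ± 0.11 on the average (adjusted p = 0.0652, and 0.022 with the block), and Cntfr differed by 0.26 ± 0.12 with passage in Tet2fl/fl cells (adjusted p = 0.497).

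Among the kinases and STATs that carry the signal, none had a genotype difference past the threshold without the block. Of all genes 0.00593% did at passage 2, 0.225% at passage 10 and 1.72% on the average. Of 6 tested of 8, the STAT5 genes Stat5a and Stat5b differed by 0.00 ± 0.11 (adjusted p = 0.991) and 0.12 ± 0.06 (adjusted p = 0.335) on the average of both passages. Jak2, the kinase of the beta chains, differed by 0.28 ± 0.09 (adjusted p = 0.131, and 0.0377 with the block). With passage in Tet2-/- cells, where 2.98% of all genes passed in either direction, 1 of 6 rose and 0 fell: Stat3, the main STAT of gp130, by 0.35 ± 0.08 (adjusted p = 0.0437). Of 15 tested of 22 adaptors and kinases, 1 rose and 0 fell in the same comparison, against the same 2.98%, the tyrosine kinase Fes, by 0.43 ± 0.08 (adjusted p = 0.0279). With 1 array left out Stat3 passed only without Tet2fl/fl replicate 3 at passage 2 or at passage 10, with adjusted p up to 0.153 in the other cases. Fes lost its call without any Tet2-/- array except replicate 2 at passage 2, with adjusted p up to 0.0937.

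The negative regulators of the pathway, all 16 of which were tested, held 3 of the 5 listed genes that passed on the average of both passages. There 3 of 16 fell in Tet2-/- cells and 0 rose, against 1.72% of all genes in either direction. They were Socs2, a feedback inhibitor of STAT5 signalling (-0.47 ± 0.07, adjusted p = 0.0102), the ERK phosphatase Dusp6 (-0.49 ± 0.09, adjusted p = 0.0247) and the adaptor Sh2b3, a brake on JAK2 (-0.31 ± 0.06, adjusted p = 0.0259). Socs2 read 10.47, 10.37 and 10.42 in Tet2-/- cells at passage 2, against 10.93, 10.98 and 10.90 in Tet2fl/fl cells, and 10.82, 10.42 and 10.68 in Tet2-/- cells at passage 10, against 10.96, 11.08 and 11.16 in Tet2fl/fl cells. The genotypes did not overlap at either passage, and Socs2 passed with any 1 array left out. The Socs2 values are from its row with the highest mean. Another Socs2 row averaged 6.81, and its difference is not given here. Dusp6 lost its call without Tet2fl/fl replicate 1 or 2 at passage 2, Tet2-/- replicate 1 at passage 2 or Tet2-/- replicate 2 or 3 at passage 10 (adjusted p up to 0.0772). Sh2b3 lost its call without Tet2fl/fl replicate 2 at passage 2, Tet2-/- replicate 1 at passage 2, Tet2fl/fl replicate 2 or 3 at passage 10 or Tet2-/- replicate 2 or 3 at passage 10 (adjusted p up to 0.0786). Spred1, an inhibitor of the RAS pathway, fell as the fourth with the block (-0.36, adjusted p = 0.11 without it and 0.0236 with it). With the block 5.41% of all genes passed in either direction. The related inhibitors Cish, at 0.06 ± 0.06 (adjusted p = 0.706), and Socs3, which binds gp130, at 0.47 ± 0.12 (adjusted p = 0.077), did not pass and had positive differences. With passage in Tet2-/- cells 1 of 16 fell, against 2.98% of all genes in either direction, the phosphatase Ptpn1 (-0.79 ± 0.11, adjusted p = 0.0224), and its call was lost without any Tet2-/- array except replicate 2 at passage 2 (adjusted p up to 0.0907).

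Of the 10 target genes of these receptors, all tested, 1 rose and 1 fell in Tet2-/- cells on the average of both passages, against 1.72% of all genes in either direction. The survival kinase Pim2 rose by 0.75 ± 0.12 (adjusted p = 0.0124). It read 8.40, 8.70 and 8.06 in Tet2-/- cells at passage 2, against 8.0, 7.90 and 7.52 in Tet2fl/fl cells, and 8.54, 8.74 and 8.75 in Tet2-/- cells at passage 10, against 7.92, 7.67 and 7.66 in Tet2fl/fl cells. The genotypes did not overlap at either passage, and Pim2 passed with any 1 array left out. Cyclin D2, Ccnd2, fell (-0.36 ± 0.07, adjusted p = 0.0247), and its call was lost without replicate 2 of either genotype at passage 2, Tet2fl/fl replicate 3 at passage 10 or Tet2-/- replicate 2 or 3 at passage 10 (adjusted p up to 0.0618). With the block the anti-apoptotic Bcl2 (0.39, adjusted p = 0.0564 without it and 0.0212 with it) and Id1 (0.29, adjusted p = 0.0678 and 0.047) passed as well, and with passage in Tet2-/- cells Myc (-0.60, adjusted p = 0.0517 and 0.0337).

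Neither of the proteases that shed Il6ra and other receptors passed, against 0% to 2.98% of all genes over the comparisons without the block. Adam17 came nearest, at 0.35 ± 0.13 with passage in Tet2fl/fl cells (adjusted p = 0.431). Adam10 differed by -0.07 ± 0.08 with passage in Tet2-/- cells (adjusted p = 0.665). The 7 tested factors that bind the motifs searched had no member past the threshold without the block, against the same share of all genes. Gata1 differed by 0.43 ± 0.11 with passage in Tet2-/- cells (adjusted p = 0.0642, and 0.0437 with the block). Cebpa differed by 0.52 ± 0.16 on the average genotype difference (adjusted p = 0.119). Gata2 differed by -0.28 ± 0.09 on that average (adjusted p = 0.145, and 0.0461 with the block), and Spi1, which encodes PU.1, by -0.02 ± 0.06 (adjusted p = 0.934). Without the block no gene on the pathway lists passed at passage 2 or passage 10 alone, against 0.00593% and 0.225% of all genes. None passed with passage in Tet2fl/fl cells or for the difference between the genotype effects, against 0% of all genes in both. Genes beyond the lists' nearest members, such as Il6, Cish, Socs3, Stat5a, Stat5b, Spi1 and Gata2, were named after their values were seen.

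**Figure D5:**
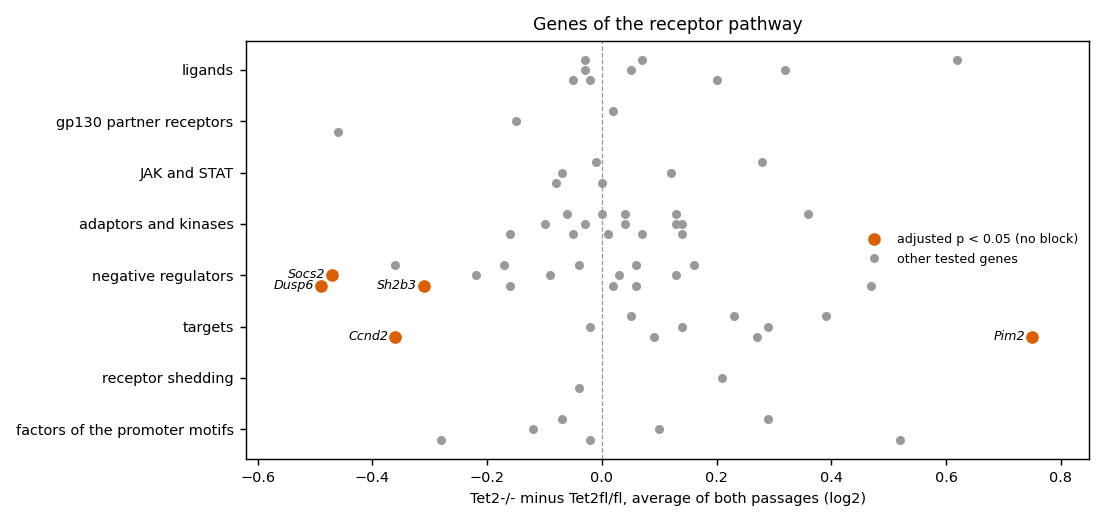
Average genotype difference (Tet2-/- minus Tet2fl/fl, log2) of every tested gene on the pathway lists, by list from top to bottom; orange points passed without the block (adjusted p below 0.05). Socs2, Dusp6 and Sh2b3 lie left of 0 among the negative regulators, and among the targets Ccnd2 lies left and Pim2, at 0.75, right.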

How the data were processed

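RNA of 12 samples was measured on 1 array each. The deposited log2 values were made by the authors with RMA in Affymetrix Power Tools, per the submitters' processing notes, with versions, library file and genome build not given in the sources used here. Precision is limited by the number of arrays. RMA can shrink the differences of dim genes. Il5ra had the lowest mean of the members, 6.52, but lay above the array medians, and shrinkage was not measured. Values were used as deposited. Rows with a mean at or above the 30th percentile (4.70) were kept, 28941 of 41345. Of all rows 23521 had 1 gene symbol, 1814 several and 16010 none. Symbols were updated by gene ID through RefSeq (GRCm38.p6, 23328 matched). Tests, correlations and the values of single genes on each array used the row of a gene with the highest mean. Averages of single genes and means of gene lists used the first row listed for a gene. This may be another row, as for Socs2.

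A linear model of the 12 arrays with 4 group means was fitted in limma 3.58.1 under R 4.3.3 (lmFit and eBayes, two-sided, 8 residual and 3.33 prior degrees of freedom). The model without the block was tried on simulated data with independent arrays, for the genotype differences at each passage and the passage differences in each genotype. The average, the difference between the genotype effects and the block were not tried in this way. Pairing was checked on deviations from the group means: r ranged from 0.201 to 0.517 over 18 same-numbered pairs and from -0.369 to 0.0532 over 36 differently numbered ones. The replicate number was therefore also fitted as a block (6 residual and 3.93 prior degrees of freedom).

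All 7 members were described, with Tet2, the 3 genes most correlated with each, and from each list the genes that passed or, where none did, the 2 nearest. The members and lists were chosen with earlier results of these data known. Alternatives covered normalization, filter, moderation, array weights, block, row choice, arrays fitted and each array left out.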

Additional observations from a re-analysis of the deposited data

How the results depend on the processing

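Of the 7 receptor genes, 0 passed in each of the 6 comparisons without the replicate block. On the average genotype difference 1 passed with equal array medians, with the filter at the 50th percentile and with limma's trend and robust options, and 2 with array weights, with the fixed replicate block and with the random replicate block. With passage in Tet2-/- cells 1 passed with quantile normalization, the 50th-percentile filter, trend and robust options, array weights or the random replicate block, and 2 with the fixed replicate block. Leaving out 1 array without the block gave 0 to 2 on the average and 0 to 1 with passage in Tet2-/- cells: the average had 1 without Tet2fl/fl replicate 1 at passage 10 and 2 without Tet2fl/fl replicate 2 at passage 10, and passage had 1 without Tet2fl/fl replicate 1 or 3 at passage 10. In the other 4 comparisons every alternative run gave 0. Over the 11 settings other than leaving out an array, 431 of 448 values of the members' differences kept their direction and side of the threshold, 16 passed newly, 0 were lost and 1 changed sign, that of Csf2rb in the difference between the genotype effects (-0.01 with array weights). With 1 array left out, these differences, none past the threshold, changed sign and ran between the values given: Il6ra between the genotypes at passage 2 (-0.13 to 0.36), Csf2rb at passage 10 (-0.14 to 0.07) and Il3ra on the average (-0.01 to 0.13). The same held with passage for Il6st in Tet2-/- cells (-1.32 to 0.13) and in Tet2fl/fl cells for Il6ra (-0.15 to 0.40), Csf2ra (-0.29 to 0.09) and Il6st (-0.58 to 0.02), and for the difference between the genotype effects of Csf2rb (-0.04 to 0.17), Csf2ra (-0.37 to 0.02) and Il6st (-1.06 to 0.39). The cause was not tested. The fixed replicate block with each array left out was added after seeing the data, and its values stand beside the receptors it concerns. The replicate block changed no other call of a member. The fit to only the arrays compared gives no value for the average and the difference between the genotype effects, which need all arrays. Scalings moved the median of all genes by at most 0.05. Over all genes tested the counts that passed ran, across all settings, from 0 to 69 at passage 2 (1 as reported), 3 to 221 at passage 10 (38), 98 to 912 on the average (290), 0 to 1728 with passage in Tet2-/- cells (503), 0 to 7 in Tet2fl/fl cells (0) and 0 to 1 for the difference between the genotype effects (0); the 0 to 2 genes with passage in Tet2-/- cells came with the fit to only the arrays compared or without any 1 of 5 Tet2-/- arrays, all but replicate 2 at passage 2. Without collapsing rows to genes Sh2b3, Dusp6, Ccnd2 and Stat3 did not pass (adjusted p = 0.0551, 0.0516, 0.0527 and 0.0673), nor did Stat3 with equal array medians (0.052) or no filter (0.0653). With 3 arrays a group, intervals are wide, up to -2.21 to 0.35 for Il6st at passage 10, and Il5ra has the lowest mean of the members, 6.52.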
